A study of Bos taurus with 24 samples.

Results

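Monocyte-derived macrophages (MDMs) of 3 high responder cows, each given as 1 untreated well and 1 well exposed to Escherichia coli for 3 h, make up the early response described here, which is 6 of the 24 libraries of the series. They were chosen by the labels high responder and 3 h, and the control and exposed wells were paired by the number in the library code (92, 93 and 94). High responder is the study's name for cows whose MDMs produced much nitric oxide after contact with E. coli, and low responder for those that produced little. All the cows were lactating female Holsteins. MDMs were grown from blood monocytes that stuck to plastic, for 6 days with 5 ng/ml of recombinant bovine GM-CSF, a growth factor for granulocytes and macrophages, in control and exposed wells alike. Exposed wells received E. coli killed with paraformaldehyde at a multiplicity of infection of 5, so the bacteria could not grow. The comparison asks which transcripts had changed in these cells after 3 h of contact with a common agent of bovine mastitis.

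Macrophages sense the lipopolysaccharide (LPS) of E. coli through TLR4 with CD14 and MD-2, and pass the signal through MyD88 and IRAK kinases to NF-kB and AP-1, and through TRIF and TICAM2 to interferon regulatory factors. The first factors to be made include the genes that end the signal, such as TNFAIP3. Cytokines, chemokines and the inducible nitric oxide synthase NOS2 follow, and interferon made by the cells themselves switches on a further set of antiviral genes.

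The expected counts of a library (the number of read pairs that the authors' software assigned to genes) summed to between 6701530 and 17676166 in the control wells and between 6589401 and 12164779 in the exposed wells. A gene's level is given as CPM (counts scaled to a common library size after TMM normalization), in the order of pairs 92, 93 and 94. Effects are log2 fold changes of exposed against control wells with their standard error (SE), from edgeR's quasi-likelihood test with a term for each cow. The p of each gene was adjusted by the Benjamini-Hochberg method over the 11264 genes tested, and a gene was called higher or lower with an adjusted p below 0.05 and a fold change above 1.5. Because the RNA is taken from whole wells, fewer cells of a type and less RNA per cell cannot be told apart. The labelled cell type was checked with its markers. The 5 macrophage markers with a name here (CD14, CD68, CSF2RA, AIF1 and MSR1) were summed in TPM (transcript abundance corrected for gene length). Their sum was between 3176 and 3919 TPM in control wells and between 2597 and 2689 TPM in exposed wells, most of it from CD68. TPM is scaled to the library total without TMM, so this sum is no measure of a change in the markers. The B cell gene CD79A, the NK cell gene PRF1, the neutrophil gene LTF and the endothelial gene KDR each stayed at or below 2.67 TPM in the 6 wells. The other members of those lists, and all dendritic cell, T cell, platelet and erythroid markers, have no name here, so their part in the results was not tested. Of the genes tested, 2228 have a symbol, and these are no random draw, since 27.7% of them were called higher against 15.7% of all genes tested.

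E. coli changed the level of 3113 genes within 3 h, which is 27.6% of those tested. Levels were higher in exposed wells for 1768 genes (15.7%) and lower for 1345 genes (11.9%). Rises were larger than falls: among the called genes, the median log2 fold change was 1.28 for rises and -0.97 for falls. More than a 4-fold change was seen in 495 of the rises and 98 of the falls, and more than a 16-fold change in 131 and 2. The direction was the same in the 3 pairs for 1748 of the genes called higher and for 1330 of those called lower. The ranges of the 6 wells did not overlap for 1407 and 1009 of them, whereas 16.3% of all genes tested lay wholly above their control wells and 13.8% wholly below.

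Genes called higher took 15.2%, 14.8% and 12.5% of the counts of the control wells and 37.9%, 41.3% and 31.7% of those of the exposed wells. The 20 most abundant of them alone went from 1.41% ± 0.105 (SD, n = 3) to 10.1% ± 2.80. The scaling sets where no change lies. Scaled to library totals without TMM, the median of all genes fell by 0.47 on the log2 scale, and 1018 genes were called higher and 3973 lower, so changes are given relative to the median gene. The plot of fold change against level shows the rises over the whole range of levels and the falls mostly below its upper end. Of the most abundant genes, the upper one of 4 equal groups by level, 27.2% were called higher and 4.62% lower. In the lowest of these groups the shares were 9.41% and 14.0%. The level was the mean over control and exposed wells, so a rise itself moves a gene up and a fall moves it down. Part of this contrast is therefore built in. In control wells alone, the median was 25.4 CPM for genes called higher, 17.7 CPM for those called lower and 23.0 CPM for others.

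**Figure D1:**
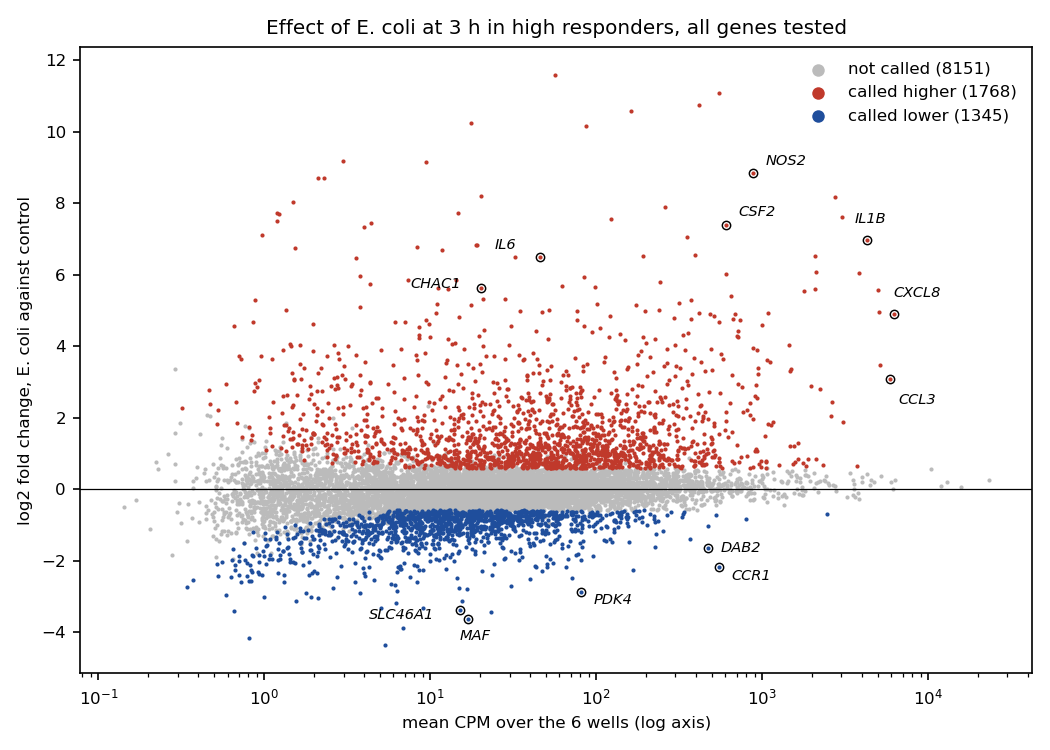
Log2 fold change of exposed against control wells (vertical axis) by mean CPM over the 6 wells (horizontal, log axis) for the 11264 genes tested, 1 point a gene. The 1768 genes called higher reach further from 0 than the 1345 called lower, and the circled genes are named in the text.

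The inducible nitric oxide synthase NOS2 (ENSBTAG00000006894), which makes nitric oxide from arginine, was among the largest rises. Its control wells held 1.97, 4.91 and 4.28 CPM and its exposed wells 1795, 1957 and 1489 CPM. All exposed wells stood far above all control wells, with a rise of 8.83 on the log2 scale (SE 0.28, adjusted p = 2.83e-07), or 456-fold. ACOD1, which makes the antibacterial metabolite itaconate, stood at 63.5, 37.4 and 35.7 CPM in control wells and rose to 4758, 4212 and 3303 CPM. Its effect was 6.53 (SE 0.21, adjusted p = 2.83e-07), with little spread between the pairs.

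Of the 19 members tested of the list of nitric oxide, oxidative burst and antimicrobial genes, 13 were called higher, 1 lower and 5 not. Their median log2 fold change was 1.07 against -0.01 over all genes tested. Without the pairing, 9 were called higher and 1 lower. GCH1, which makes the cofactor that NOS2 needs, rose by 2.85 on the log2 scale (SE 0.26), from between 15.0 and 19.8 CPM to between 85.0 and 168 CPM. ARG2, an arginase that competes for the same substrate, rose by 2.82 (SE 0.16). ASS1, which rebuilds arginine from citrulline, was not called: its wells overlapped, with an effect of -0.13 (SE 0.13, adjusted p = 0.499). Among the parts of the NADPH oxidase, NCF1 rose by 2.34 (SE 0.18), CYBB by 1.21 (SE 0.14) and NCF4 by 0.98. The member called lower was HMOX1, the heme-degrading enzyme, at 72.0, 124 and 126 CPM in control wells and 40.2, 61.8 and 42.6 CPM in exposed wells (effect -1.14, SE 0.16, adjusted p = 0.000662).

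Cytokine transcripts rose in 10 of the 12 members tested, with a median effect of 2.53, and 1 was called lower. Without the pairing, or when tested against the fold change of 1.5, 7 were called higher and none lower. IL1B, the fever-inducing cytokine, went from 52.8, 48.6 and 75.5 CPM to 9459.5, 13118 and 2958 CPM. Every exposed well was above every control well, but pair 94 reached less than the other pairs, and the effect was 6.98 with a wide SE of 0.59 (adjusted p = 3.59e-05). CSF2, which encodes GM-CSF and whose transcript is not part of the recombinant protein added to the cultures, also had its lowest exposed well in pair 94. It stood at 4.93, 3.59 and 7.37 CPM in control wells and at 1525, 1879.9 and 226 CPM in exposed wells (effect 7.40, SE 0.79, adjusted p = 0.000146). IL6, an inducer of the acute phase response, was low in control wells at 0.987, 0.442 and 1.60 CPM and reached 105, 90.3 and 77.9 CPM (effect 6.49, SE 0.37, adjusted p = 4.44e-06). LIF, a cytokine of the IL-6 family, rose by 6.82 (SE 0.52), from 0 to 0.541 CPM in control wells to between 20.9 and 52.9 CPM. TNFSF9, the ligand of a co-stimulatory receptor on T cells, rose by 5.17 (SE 0.24) and INHBA, the subunit of activin A, by 3.46 (SE 0.27). PDGFB, a growth factor for mesenchymal cells, was called lower (-0.97, SE 0.19, adjusted p = 0.0045). IL18 was not called at -0.12 (SE 0.22, adjusted p = 0.703).

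All 8 chemokines tested, of 23 listed, were called higher, with a median effect of 4.82. CXCL8, which recruits neutrophils, held 477, 294 and 419 CPM in control wells and 12801, 15085 and 8152 CPM in exposed wells (effect 4.90, SE 0.31, adjusted p = 7.71e-06). CCL4, which attracts monocytes and T cells, went from 298, 102 and 224 CPM to 11804, 12616 and 5011 CPM (effect 5.56, SE 0.48, adjusted p = 3.88e-05). In both genes the 3 exposed wells lay above the 3 control wells and pair 94 was the lowest. CCL3 already held 1221, 814 and 1679 CPM without bacteria and rose by 3.08 (SE 0.38) to between 6760.5 and 14884 CPM. CCL5 rose by 5.56 (SE 0.50), CXCL2 by 4.96 (SE 0.30), CCL8 by 4.74 (SE 0.42) and CXCL16 by 2.29 (SE 0.16). The smallest rise was that of CCL17 at 1.24 (SE 0.25, adjusted p = 0.00518), a chemokine linked to allergic responses, whose wells overlapped at 0.617, 1.38 and 2.50 CPM against 2.36, 3.54 and 4.67 CPM. CXCL2 had expected counts that are not whole in 6 of the 6 libraries, so some of its read pairs were shared with a similar sequence and its level is uncertain. Such counts occurred in 12 of the 245 list members tested, OAS1X, TAP2, SIRPA and RGS2 among them in all 6 wells.

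Measured per length, several chemokines were among the most abundant transcripts of the exposed cells. CCL4 had the highest mean of all genes in exposed wells, 21708 TPM ± 7796 (SD, n = 3), and ranked 235 in control wells. CCL3 moved from rank 50 to rank 3, CXCL2 from 297 to 7, CXCL8 from 327 to 9, IL1B from 2493 to 21 and ACOD1 from 2474 to 36. NOS2, in spite of its larger fold change, reached only rank 302, at 504 TPM ± 22.4. Of the 50 most abundant transcripts of exposed wells, 36 were also among the 50 most abundant of control wells and 18 were called higher. Only 17 of the 50 in exposed wells have a symbol here.

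**Figure D2:**
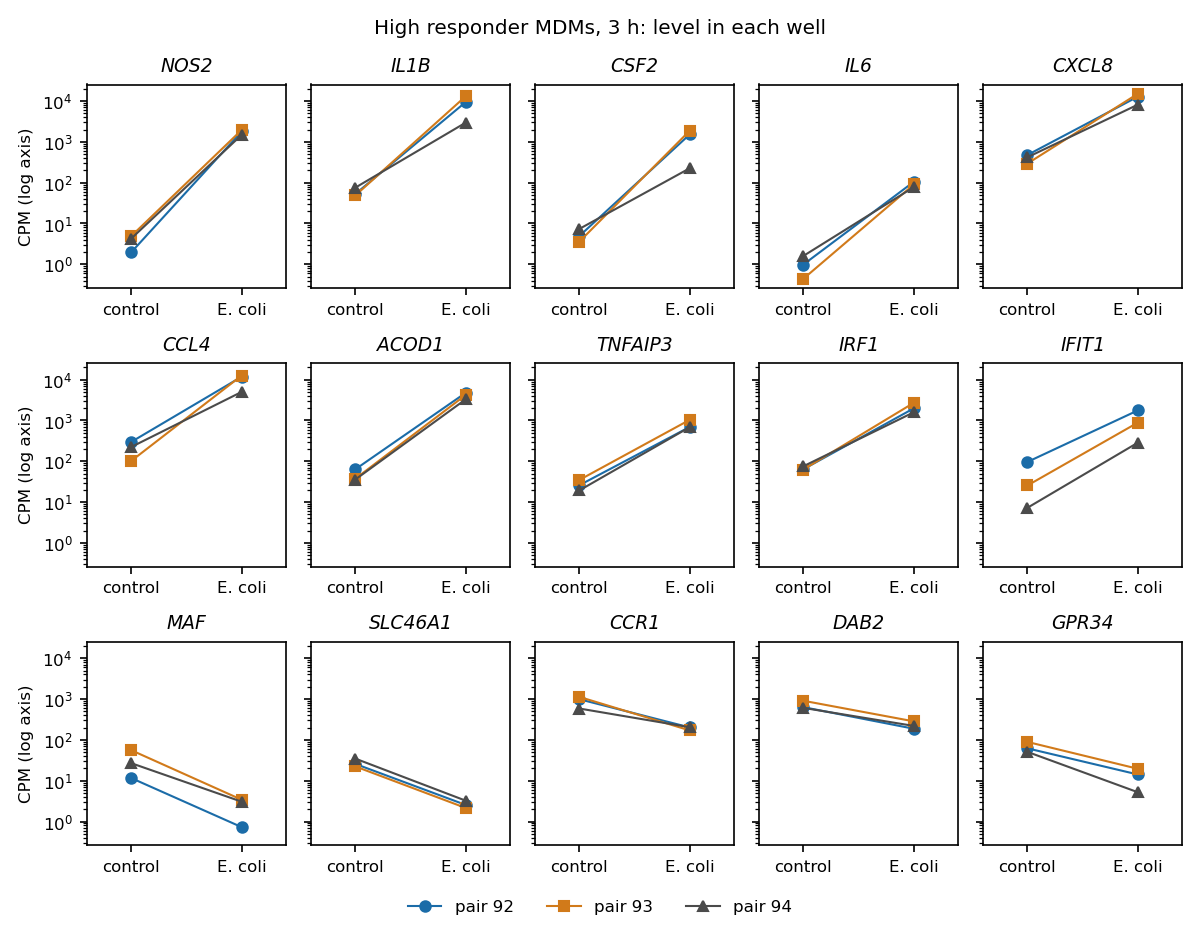
CPM (vertical, log axis) in the control and the E. coli well of each of the 3 pairs for 15 genes; a line joins the wells of 1 pair. In each of these genes the exposed wells lie wholly above or wholly below the control wells, and in IL1B and CSF2 pair 94 (triangles) ends lowest, at 2958 and 226 CPM.

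The NF-kB list holds 25 symbols, and the 9 of them that were tested were all called higher, with a median effect of 3.77. In each of these 9 genes the 3 exposed wells were above the 3 control wells. TNFAIP3 (A20), the enzyme that takes down the ubiquitin chains of the pathway, stood at 25.9, 34.8 and 19.3 CPM and rose to 693, 1037 and 688 CPM (effect 4.93, SE 0.15, adjusted p = 2.8e-07). Its partners TNIP3 and TNIP1 rose by 5.02 (SE 0.28) and 2.92. The atypical inhibitor NFKBIZ, which also drives late genes such as IL6, rose by 4.91 (SE 0.18) and the ubiquitin ligase BIRC3 by 4.03 (SE 0.15), from 194, 149 and 162 CPM to 2481, 2812 and 2946 CPM. The subunits NFKB2 and RELB, which act in the slow arm of the pathway, rose by 3.77 (SE 0.15) and 2.59 (SE 0.21), and the inhibitors NFKBIE and NFKBIB by 3.11 and 2.18.

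Of the 10 genes tested of LPS sensing and the signal below it, 5 were called higher, 2 lower and 3 not, with a median of 0.56. Only 3 were called higher without the pairing or with library totals. The LPS receptor TLR4 held 232, 216 and 143 CPM in control wells and 326, 251 and 173 CPM in exposed wells, which overlapped (effect 0.33, SE 0.12, adjusted p = 0.0613). Its co-receptor CD14 was at -0.04 (SE 0.14, adjusted p = 0.836). TLR2, the receptor for bacterial lipoproteins, rose by 0.81 (SE 0.10) in all pairs alike. Of the kinases below the receptors, IRAK2, which prolongs the signal, rose by 4.36 (SE 0.20) from 35.3, 33.0 and 26.4 CPM to 711, 925 and 403 CPM, and IRAK3, which blunts it, by 2.54 (SE 0.15). The adaptor TICAM2 rose by 0.79 (SE 0.14), whereas the adaptor MYD88 was lower, at 143, 171 and 143 CPM against 96.2, 85.6 and 108 CPM (effect -0.66, SE 0.15, adjusted p = 0.00878). CD180, a relative of TLR4, was lower too (-1.45, SE 0.24, adjusted p = 0.00166).

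Immediate early and AP-1 factors were called higher in 13 of 15 members, with a median of 2.39, and none was called lower. The orphan nuclear receptor NR4A1 rose from 1.11, 0.737 and 1.01 CPM to 34.9, 70.6 and 16.9 CPM (effect 5.31, SE 0.39, adjusted p = 1.6e-05). Pair 93 was highest and pair 94 lowest, an order that JUNB, EGR1, MAFF and DUSP1 shared in their log2 ratios. PRDM1 (Blimp-1) rose by 3.44 (SE 0.14) with little spread, and MAFF by 4.03 (SE 0.28). KLF10 and HES1 were not called (0.43 and -0.15).

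The feedback genes split. DUSP1, which switches off p38 and JNK, rose by 2.51 (SE 0.29) and DUSP16 by 2.38, whereas DUSP6, which acts on ERK, was lower (-0.67, SE 0.11, adjusted p = 0.00156). SPRY2, an inhibitor of growth factor signalling, stood at 15.7, 11.2 and 23.9 CPM in control wells and between 2.02 and 7.82 CPM in exposed wells (effect -1.95, SE 0.23, adjusted p = 0.000233). BCL6, a repressor of inflammatory genes, rose by 2.04 (SE 0.13). In all, 5 of the 11 members tested were called higher, 2 lower and 4 not.

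Interferon response factors and targets formed the largest list, and 28 of its 31 members were called higher and none lower, with a median of 1.67. Without the pairing, 20 of the 31 members were called higher and none lower. IRF1, the factor that drives many of them, went from 63.9, 62.9 and 75.4 CPM to 1979.9, 2702 and 1589 CPM (effect 4.93, SE 0.21, adjusted p = 1.07e-06). GBP5, a guanylate-binding protein that acts on intracellular bacteria, rose by 5.67 (SE 0.20), from 4.19, 5.36 and 1.25 CPM to 217, 315 and 48.0 CPM. IFIT1, an antiviral RNA-binding protein, held 96.3, 25.5 and 7.25 CPM in control wells and 1764, 886 and 286 CPM in exposed wells (effect 4.85, SE 0.26, adjusted p = 3.55e-06). Its control wells differed widely between cows and its exposed wells kept that order, while the log2 ratios were 4.19, 5.11 and 5.27. RSAD2 (viperin) varied in the same way, with exposed wells at 1448, 641 and 76.1 CPM and an effect of 4.76 (SE 0.46). ISG15 rose by 3.91 (SE 0.30), IFIH1 by 3.40 and IRF8 by 2.66 (SE 0.20). Of the signalling factors, STAT2 rose by 0.78 and IRF9 by 1.08 (SE 0.21). IRF2, PARP9 and IFI35 were not called.

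Among 6 inflammasome genes, 4 were called higher (median 1.44). NLRP3, a sensor that must be made before it can be assembled, went from 67.5, 69.1 and 44.9 CPM to 1549.8, 1799 and 731 CPM (effect 4.42, SE 0.18, adjusted p = 9.57e-07). NAIP, a sensor of bacterial flagellin and secretion needles, rose by 3.93 (SE 0.19) and CASP4, the caspase that binds LPS in the cytosol, by 2.05 (SE 0.12). Survival genes rose as well: of 10 members, 7 were called higher, 1 lower and 2 not (median 1.53). BCL2A1 stood at 149, 161 and 157 CPM in control wells and 1924, 2176 and 1067 CPM in exposed wells (effect 3.40, SE 0.20), and DDIT4, an inhibitor of mTORC1, rose by 4.80 (SE 0.18). The initiator caspase CASP9 was lower (-0.74, adjusted p = 0.0173).

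Of the 19 genes of the hypoxia factor and glycolysis, 6 were called higher, 2 lower and 11 not, and their median of 0.02 turned to -0.44 with library totals (5 higher and 5 lower). The share called higher, 31.6%, lies near the 27.7% of all tested genes with a symbol. HIF1A, the hypoxia-inducible factor, went from 394, 394 and 210.5 CPM to 1399.6, 1447 and 1213 CPM (effect 2.08, SE 0.16, adjusted p = 2.15e-05). The glucose transporters SLC2A3 and SLC2A6 rose by 3.57 (SE 0.20) and 3.54, and PFKFB3, which makes the activator of phosphofructokinase, by 2.41 (SE 0.17). PDK4, a kinase that inhibits pyruvate dehydrogenase, was lower, at 139, 182 and 104 CPM against 17.5, 18.4 and 20.9 CPM (effect -2.86, SE 0.26, adjusted p = 5.05e-05), and so was the lactate exporter SLC16A3 (-0.98, SE 0.16). The enzymes LDHA and GAPDH were not called, at 0.02 (SE 0.10, adjusted p = 0.914) and -0.05 (SE 0.12, adjusted p = 0.774). The 4 genes of the TCA cycle tested were not called (range -0.05 to 0.33, median 0.04, and -0.41 with library totals). Among 10 sterol and lipid genes, 3 were called higher (30%, near the 27.7% of those with a symbol) and 1 lower, against 5 lower with library totals. Of these, the cholesterol exporter ABCA1 rose by 3.16 (SE 0.36) and INSIG1, a brake on sterol synthesis, by 1.77, whereas INSIG2 was at -0.67 (adjusted p = 0.0215).

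**Figure D3:**
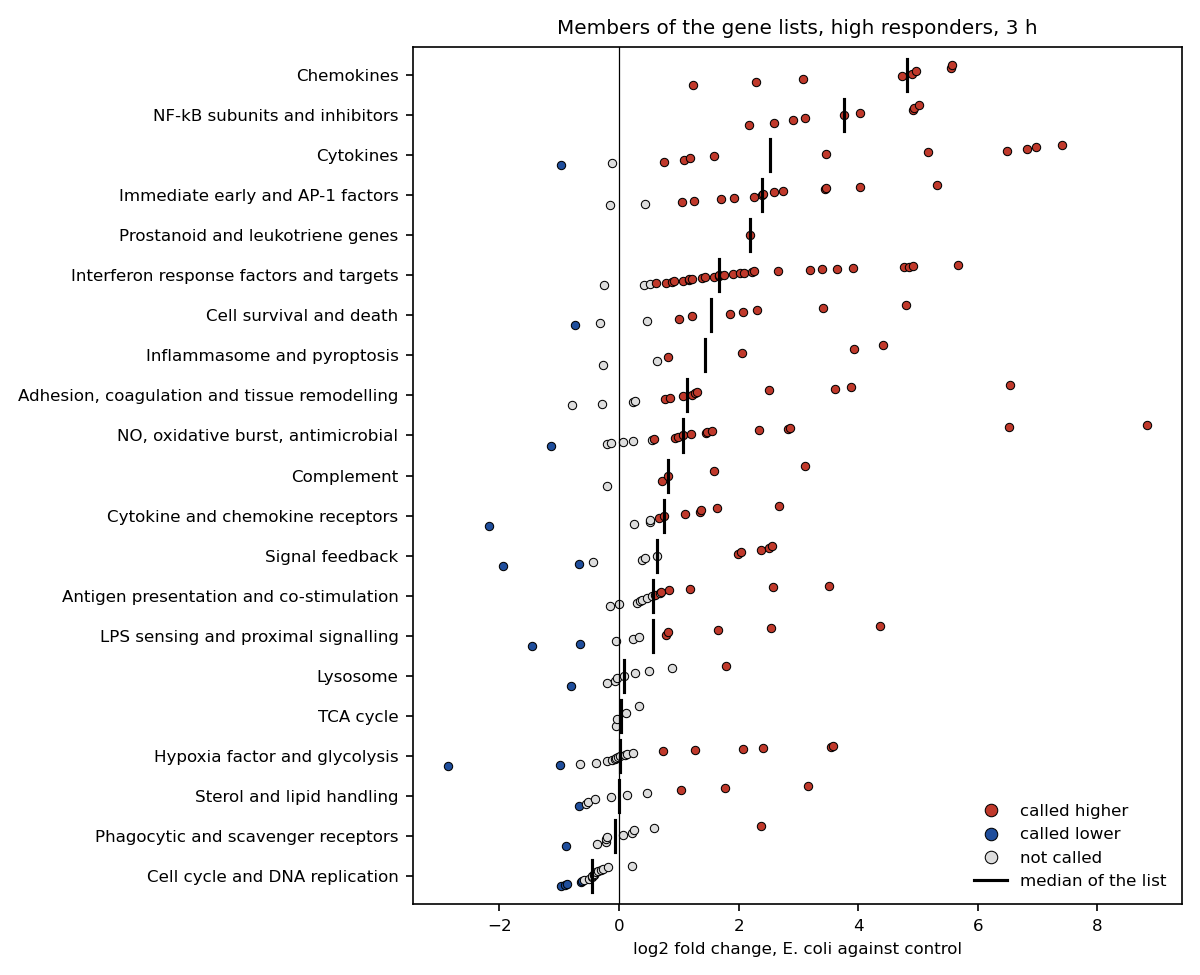
Log2 fold change (horizontal axis) of each tested member of the 21 gene lists, 1 point a gene, coloured by its call, with a bar at the median of each list. Chemokines (median 4.82) and NF-kB genes (3.77) lie wholly to the right of 0, and cell cycle genes (-0.45) mostly to its left.

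Receptors for cytokines and chemokines were called higher in 7 of 11 members (5 without the pairing) and lower in 1 (median 0.76). The chemokine receptor CCR1, which binds CCL3 and CCL5, was the abundant exception. Its control wells held 990.3, 1129 and 586 CPM and its exposed wells 202, 170.5 and 204 CPM, with no overlap (effect -2.18, SE 0.24, adjusted p = 0.000174), though its counts were not whole in 4 of the 6 wells. IL7R rose by 2.68 (SE 0.26), CXCR4, the receptor of CXCL12, by 1.35 (SE 0.11) and IFNAR2, a chain of the type I interferon receptor, by 1.65 (SE 0.12). The GM-CSF receptor chains CSF2RA and CSF2RB rose by 0.67 and 0.76.

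Of the 14 genes of antigen presentation and co-stimulation, 6 were called higher and none lower (median 0.57). Higher calls numbered 4, 3 and 9 without pairs 92, 93 and 94, and 3 without the pairing or when tested against the fold change of 1.5. With library totals 3 were called higher and 1 lower (median 0.11). CD274 (PD-L1), an inhibitory ligand for T cells, rose by 3.52 (SE 0.18), from 37.4, 41.7 and 12.1 CPM to 407, 376 and 189 CPM. MARCH1, which removes MHC class II from the surface, rose by 2.58 (SE 0.31) and the peptide transporter TAP1 by 1.19 (SE 0.15). The class II genes BOLA-DRA and BOLA-DMB and B2M of class I were not called (0.39, -0.16 and 0.35).

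Adhesion, coagulation and tissue remodelling genes were called higher in 10 of 14 members and lower in none (median 1.14). EDN1, the vasoconstrictor endothelin, went from 13.6, 4.37 and 7.66 CPM to 1171, 679 and 476 CPM (effect 6.54, SE 0.27, adjusted p = 9.73e-07). ICAM1, the ligand by which leukocytes adhere, rose by 3.88 (SE 0.14) and the plasminogen activator inhibitor SERPINB2 by 3.61 (SE 0.15). Complement genes rose in 4 of 5 members (2 without the pairing, with library totals or when tested against the fold change of 1.5), C1R by 3.12 (SE 0.30) from a low 0.493, 1.13 and 2.85 CPM and C3 by 1.58 (SE 0.12). The single prostanoid gene with a name here, the prostaglandin E2 receptor PTGER2, rose by 2.19 (SE 0.19).

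Among 10 phagocytic and scavenger receptors, 1 was called higher, 1 lower and 8 not (median -0.07), and with library totals 1 was called higher and 4 lower (median -0.53). Among 9 lysosome genes the counts were 1, 1 and 7 (median 0.08, which turned to -0.37 with library totals). Of all tested genes with a symbol, 27.7% were called higher and 12.1% lower. CLEC4E (Mincle) was the receptor that rose, by 2.38 (SE 0.19), and CLEC5A was called lower at -0.88 (SE 0.26, adjusted p = 0.0283) with overlapping wells. MITF, a factor that drives lysosome genes, rose by 1.79 (SE 0.20).

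Of 17 cell cycle and DNA replication genes, 5 were called lower, none higher and 12 not, with a median of -0.45. RRM1, a subunit of ribonucleotide reductase, held 147, 115 and 124 CPM in control wells and 85.6, 51.7 and 62.0 CPM in exposed wells (effect -0.98, SE 0.11, adjusted p = 0.000223). The proliferation marker MKI67 was not called, with 319, 143 and 148 CPM against 285, 123 and 300.1 CPM, and pair 94 moved against the other pairs. The count of 5 depended on the settings. It was 16 with library totals in place of TMM, 3 without pair 92 or without pair 93, 2 with the 6 libraries alone, and 1 without the pairing or when tested against the fold change of 1.5.

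Over the 21 lists, 141 of the 245 members tested were called higher, 18 lower and 86 not. The lists held 630 symbols, of which 250 have a name here, so most of their members were not seen. Of all genes tested 15.7% were called higher, and of those with a symbol 27.7%, and the lists were made of genes known to respond to LPS as well as of housekeeping pathways.

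Among the genes with a symbol and a mean of at least 10 CPM, the largest falls were those of MAF and SLC46A1. MAF, a transcription factor of resting macrophages, stood at 11.6, 55.8 and 26.9 CPM in control wells and 0.727, 3.41 and 3.06 CPM in exposed wells (effect -3.63, SE 0.24, adjusted p = 9.61e-06), a fall of 12.4-fold. The proton-coupled folate transporter SLC46A1 was at 25.8, 22.4 and 34.8 CPM against 2.55, 2.15 and 3.24 CPM, with log2 ratios of -3.25, -3.27 and -3.35 (effect -3.38, SE 0.19, adjusted p = 4.08e-06). Both genes separated the wells completely. HAS2, a hyaluronan synthase, was at -2.78 (SE 0.34), GPR34, a lysophosphatidylserine receptor, at -2.51 (SE 0.24), the signalling adaptor SASH3 at -2.41 (SE 0.26) and RGS19, a regulator of G protein signalling, at -2.29 (SE 0.23). HDHD3 was lower by the same measure at -2.76 (SE 0.29). GCNT4 had an effect of -2.30 (SE 0.47, adjusted p = 0.00503), but its control well of pair 94 held 6.24 CPM where the other control wells held 46.2 and 53.7 CPM, so the fall rested on pairs 92 and 93.

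Falls among abundant genes were smaller. Besides CCR1, the endocytic adaptor DAB2 had the highest control level among the named genes called lower, at 634, 908 and 608 CPM against 187, 284 and 219.6 CPM (effect -1.63, SE 0.15, adjusted p = 5e-05). SGPL1, which degrades sphingosine 1-phosphate, was at -0.99 (SE 0.16), CYTH4 at -0.90 (SE 0.21), the glucocorticoid-induced co-chaperone FKBP5 at -0.84 (SE 0.13) and the protease FURIN at -0.75 (SE 0.16). The wells of FKBP5 and FURIN overlapped between groups although each pair fell.

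Some rises started from almost nothing. ADAMTS5, a protease of cartilage matrix, had 1 count in the 3 control wells together and 1007 in the exposed wells, a ratio of 1858 with a 95% counting interval of 333 to 73471. In 19 genes called higher the 3 control wells held 3 counts or fewer, among them CYP24A1, which breaks down vitamin D (0 counts against 133, at least 81.8-fold higher), and TNC, the matrix protein tenascin-C (0 against 75, at least 46.1-fold higher). These bounds set 3 counts for the control wells as a group. With the counting error of both groups, the lower 95% limits of the ratios were 65.6 and 36.6. These limits and the interval for ADAMTS5 pool the reads of the 3 wells of a group and leave out the spread between cows. CHAC1, a glutathione-degrading enzyme of the amino acid stress response, rose from 0.863, 0.590 and 1.07 CPM to 22.7, 41.4 and 54.1 CPM (effect 5.62, SE 0.39), the pair 94 well being the highest. Of genes without a symbol here, ENSBTAG00000009012 reached 504, 1845 and 932 CPM from 0.123, 0.197 and 1.13 CPM, and ENSBTAG00000021462 had an effect of 10.76 (SE 0.37). The unnamed genes that fell furthest were ENSBTAG00000020433 at -3.43 (SE 0.21) and ENSBTAG00000014217 at -3.11 (SE 0.18).

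The 3 pairs are set side by side here with no test between them. The median log2 ratio of the genes called higher was 1.24 in pair 92, 1.33 in pair 93 and 1.33 in pair 94, and among them pair 94 had the smallest change of the 3 in 801 genes and the largest in 655. Among the 1345 genes called lower, it had the smallest change in 695 and the largest in 307, and over all 11264 genes tested the smallest in 4176. The median over the cytokine list was 3.03, 2.99 and 1.93 in pairs 92, 93 and 94, that over the chemokine list 4.34, 5.76 and 4.20, and that over the immediate early list 2.38, 3.16 and 1.43. In the interferon list pair 94 had the smallest change in 23 of 31 members. It was not the weakest everywhere, since its log2 ratios were the largest of the 3 for HIF1A (2.53), ABCA1 (4.27), IL7R (3.52) and NAIP (4.38). Without pair 94, 3592 genes were called, and without pair 93 the genes called lower numbered 848 in place of 1345. Whether a feature of that cow, culture or library moved with these values was not tested.

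In the wells of low responder cows at 3 h, the closest comparison, 1119 genes (9.93%) were called higher and 876 (7.78%) lower. Of the 1768 genes called higher in high responders, 1034 were also called higher there, and their median effect over all 1768 was 0.80 against 1.28. A smaller count in one group is no test of a difference, and the genes were picked by the high responder wells. The test of the difference between both effects, in the same fit, called 20 genes (0.178%), all with a larger rise in high responders and none the other way, while 1430 had an unadjusted p below 0.05.

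**Figure D4:**
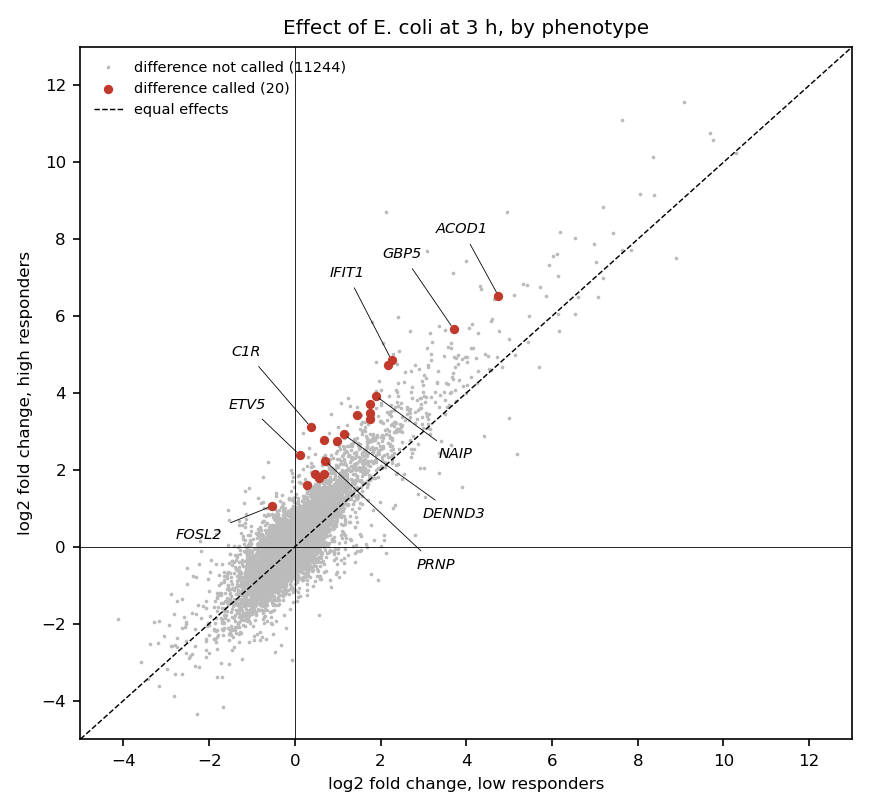
Log2 fold change of E. coli against control at 3 h in high responders (vertical) and low responders (horizontal), 1 point a gene, with a dashed line where both are equal. The 20 genes with a called difference (red) lie above the line.

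In high responders ETV5, a transcription factor of the ETS family, went from 17.8, 17.5 and 15.8 CPM to 116, 74.1 and 84.1 CPM (effect 2.39, SE 0.18), and its wells did not overlap. In low responders its control wells held between 13.4 and 25.6 CPM and its exposed wells between 11.1 and 26.3 CPM (effect 0.11, SE 0.19). The difference was 2.28 (95% interval 1.70 to 2.87, adjusted p = 0.0224). FOSL2, an AP-1 subunit, rose by 1.06 in high responders and was at -0.54 in low responders, a difference of 1.60 (95% interval 1.14 to 2.06, adjusted p = 0.0265). For NAIP the difference was 2.04 (SE 0.24), for DENND3, an activator of a Rab GTPase, 1.78 (SE 0.18) and for PRNP, the prion protein, 1.54 (SE 0.17). In GBP5, IFIT1 and ACOD1 the control wells differed as well: those of low responders averaged 25.8, 335 and 105 CPM, those of high responders 3.60, 43.0 and 45.5 CPM. Exposed wells of GBP5 averaged 329 CPM ± 205 (SD, n = 3) in low responders and 194 CPM ± 135 in high responders, so that its larger fold change in high responders (difference 1.96, SE 0.24, adjusted p = 0.0265) went with a lower start and no higher end. NOS2 rose by 7.19 in low responders, and its difference of 1.64 did not pass the test (95% interval 0.93 to 2.36, adjusted p = 0.0781). None of the 5 genes with the lowest p among negative differences passed: the nearest were PITHD1 (-1.26, adjusted p = 0.0565) and SLC46A1 (-1.58, adjusted p = 0.0581).

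These 20 calls depended on single cows: 506 differences were called without high responder pair 94, 13 without pair 92, and 0 without pair 93 or without any 1 of the low responder pairs. DESeq2 called 189, of which 184 were positive.

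At 18 h, other wells of the high responder cows showed what followed. There 1901 of 11572 genes tested were called higher (16.4%) and 2424 lower (20.9%). Of the 1768 genes called higher at 3 h, 1064 were called higher at 18 h, 57 lower, 637 were not called and 10 were not tested. Of the 1345 called lower at 3 h, 699 were lower, 13 higher, 632 not called and 1 not tested. The test of the difference between both effects called 2408 genes (20.8%), 905 positive (7.82%) and 1503 negative (13%). Per the study's methods, cells of each cow were split over separate wells and each plate served 1 time point, so time and plate cannot be told apart. The library codes do not show which pairs of 3 h and 18 h come from 1 cow, so each pair of wells had its own term. Genes called at 3 h were picked with the same 3 h wells that enter this difference. Levels and effects at 3 h are from the fit of the 12 libraries of 3 h. Those at 18 h, and the differences with time, are from the fit of the 12 high responder libraries, which was scaled separately. Levels at both times are therefore not on exactly the same scale, and effects need not subtract exactly to their difference.

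**Figure D5:**
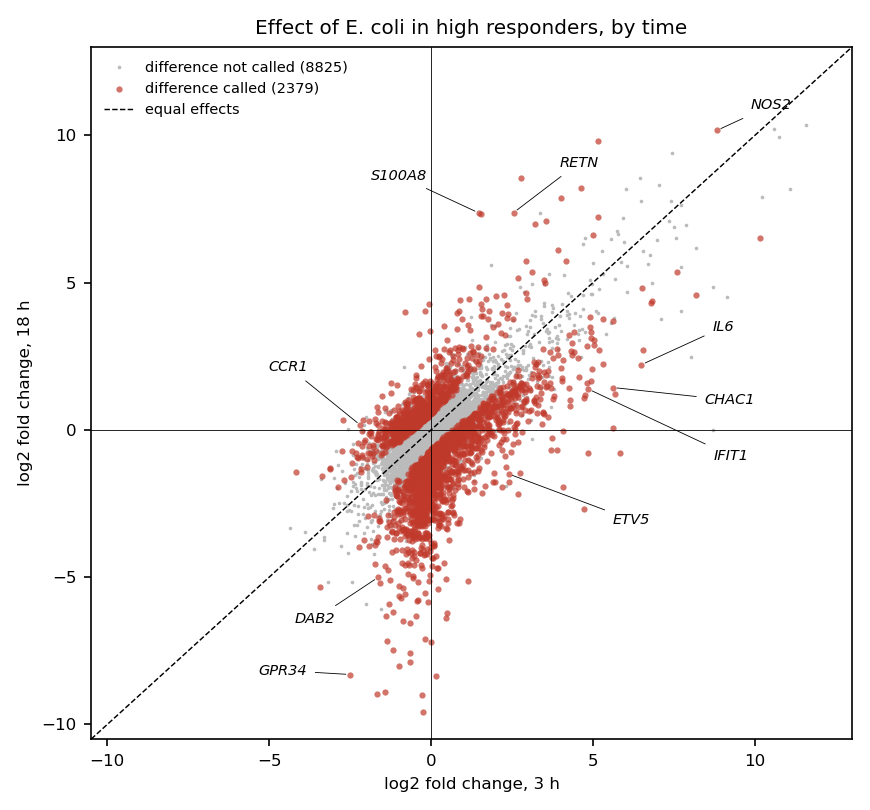
Log2 fold change of E. coli against control in high responders at 18 h (vertical) and 3 h (horizontal) for the 11204 genes tested at both, with a dashed line where both are equal. Red points are genes with a called difference, 890 above the line and 1489 below it.

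By the test of the difference, the effect was smaller at 18 h in 8 of 9 NF-kB genes, 13 of 31 interferon genes, 6 of 15 immediate early genes, 2 of 10 genes of LPS sensing and 2 of 11 feedback genes. No member of these 5 lists was called with a larger effect at 18 h. Of all 11204 genes tested at both times, 1489 had a called negative difference. Of the 1768 genes called higher at 3 h, 495 had one. The counts for LPS sensing and feedback genes lie between these 2 shares. BIRC3 was at 4.03 at 3 h and 1.67 at 18 h (difference -2.31, adjusted p = 0.000409). IFIT1 was at 4.85 and 1.39 (difference -3.42, adjusted p = 0.00429). IL6 had come down from 91.1 CPM ± 13.6 (SD, n = 3) at 3 h to 8.68 ± 6.98 at 18 h in exposed wells (difference -4.24, adjusted p = 0.00388), whereas no difference was called for IL1B (-0.49, adjusted p = 0.628). CHAC1 averaged 39.4 CPM in exposed wells at 3 h and 4.11 CPM at 18 h (difference -4.13, adjusted p = 0.000928). ETV5 turned around, from 2.39 to -1.50 (difference -3.84).

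Other effects were larger at 18 h. NOS2 reached 7506 CPM ± 1423 (SD, n = 3) in exposed wells at 18 h against 1747 ± 238 at 3 h (difference 1.37, adjusted p = 0.034). Of the 19 genes of its list, 8 had a larger effect at 18 h and 2 a smaller one. S100A8 and S100A9, the subunits of calprotectin, were already called higher at 3 h (1.47 and 1.55), though their wells overlapped because both wells of pair 94 stood above those of the other pairs, with S100A8 at 27.7 CPM in its control well against 2.22 and 2.21. At 18 h the exposed wells of S100A8 averaged 1116 CPM and the effect was larger by 5.95. RETN (resistin), with the same high pair 94, was higher by 4.89. Among early falls, CCR1 stood at 821 CPM ± 87.8 (SD, n = 3) in exposed wells at 18 h against 738 ± 104 in control wells (difference of the effects 2.39, adjusted p = 0.00139). The falls of DAB2 and GPR34 were larger at 18 h, with differences of -3.32 and -5.75. Cell cycle genes, of which 5 of 17 were lower at 3 h, were lower in 17 of 17 at 18 h, and the effect was more negative by the test in 15.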

How the data were processed

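Messenger RNA of 24 wells of bovine MDMs was sequenced as read pairs from stranded libraries. Per the labels and the methods, the authors trimmed reads with Trimmomatic, checked them with FastQC 0.11.5, and used STAR (genome UMD 3.1), RSEM and DESeq2 1.22.2. The deposited values used are RSEM's expected counts, which are estimated and not normalized, and the authors' TPM, for 24616 genes. Whether counting used the strand is not given in the sources used here.

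The expected counts were rounded and fitted with edgeR 4.0.16 in R 4.3.3 (TMM, filterByExpr, quasi-likelihood), using the 12 libraries of 3 h, a blocking term per cow and a separate E. coli term for high and low responders. Change with time was tested in the 12 high responder libraries. Wells were paired by the code number, although no label says outright which wells share a cow. Across genes, deviations from the group means correlated at 0.478 to 0.732 within the 3 pairs, against -0.483 to -0.00214 for the 6 mismatched combinations. Within a group a gene's deviations cancel, so positive values within pairs pull the mismatched values down. The contrast between them is therefore partly fixed in advance. An exact two-sided permutation test with 3 cows cannot reach 0.05, so each p comes from the fit across all genes. The fits were tested on simulated data.

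Symbols came from copies of the study's gene tables that hold part of the genes, and gave 2803 of them a symbol. Part of these tables was ranked by the study's own results. Which genes have a symbol, and so enter a list, is therefore not independent of the response. Members and lists were chosen with earlier results of these data known. Named genes are the 10 largest called changes per direction (symbol, mean of at least 10 CPM, 3 pairs alike), list members with the lowest p or the role a list is about, the 6 most abundant called genes per direction, and the 5 lowest p per direction of each difference. CYP24A1, TNC, FOSL2 and further list members were picked after their values were seen. Some genes that these rules name are not reported here; they stay in the counts. Alternatives were other size factors, library totals, other filters and thresholds, DESeq2 1.42.0 with and without length offsets, no pairing, other sets of libraries, thinning, and leaving out each pair. Those for lists and named genes were added after seeing the data.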

Additional observations from a re-analysis of the deposited data

Results flagged for a closer look

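Differences between phenotypes or time points that passed edgeR's quasi-likelihood test (Benjamini-Hochberg, all genes tested) among the named genes called at 3 h are given as values, in log2 units.

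Between high and low responders at 3 h, the effect of E. coli was larger in high responders by 1.96 for GBP5, 2.04 for NAIP, 1.78 for DENND3, 1.54 for PRNP and 2.28 for ETV5. Each was higher in 3 of 3 high responder pairs, as were 1748 of the 1768 genes called higher, which is no test of the difference. All these differences lost their call when any 1 of the low responder pairs or high responder pair 93 was left out.

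Between 18 h and 3 h in high responders, the effect was larger at 18 h by 5.95 for S100A8, 5.85 for S100A9, 4.89 for RETN, 3.20 for AOAH, the enzyme that deacylates LPS, and 1.66 for the lactate exporter SLC16A3. It was smaller or more negative at 18 h for ETV5 (-3.84), TICRR, a replication factor (-3.56), TNFSF13, the cytokine APRIL (-3.44), DAB2 (-3.32) and FKBP5 (-2.47). S100A8, S100A9, AOAH, TICRR, FKBP5 and SLC16A3 had overlapping wells at 3 h.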

How the results depend on the processing

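The early response had 3113 calls, 1768 higher and 1345 lower. Library totals without TMM gave 4991 (1018 and 3973), a test against the fold change of 1.5 itself gave 1591 (1113 and 478), and leaving out each pair gave 2420 to 3592 in all, 1572 to 1861 higher and 848 to 1731 lower, the lowest without pair 93. Without the pairing of wells (no replicate block) it was 1824 (1149 and 675). The remaining alternatives gave between 2462 (the 6 libraries alone) and 3906 (no minimum fold change).

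Of the 20 differences between phenotypes, 0 passed without the pairing, with 330 at an unadjusted p below 0.05. DESeq2 called 189 (184 positive, 5 negative), and leaving out 1 pair gave 0 to 506 (0 to 443 positive, 0 to 63 negative). The test of change with time called 2408 genes (905 and 1503), 724 without the pairing (239 and 485), and between 1343 and 3642 with 1 pair left out (326 to 1564 positive, 1017 to 2078 negative).

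List members called numbered 159 and ranged from 122 to 177. In the repeats over named genes, 1314 values kept direction and call and 71 kept direction only, 20 of these without the pairing, and none reversed. For the difference between phenotypes, 66 repeats kept the call status, 28 lost the call and 5 gained it. With 3 pairs and depths down to 6589401 counts, falls of genes with few counts are the least certain.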

Other observations

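Called genes also differed in length and in control level, and the control counts enter the test itself. The median effective length, the part of a transcript from which a fragment can start, was 2014 bases for genes called higher, 1860 for those called lower and 1689 for the others. The median level in control wells was 25.4 CPM for genes called higher and 17.7 CPM for those called lower, against 23.0 CPM for the others. These are descriptions of the genes, which are not independent replicates.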
